A study of Mus musculus with 8 samples.

Results

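The Ugt2 glucuronosyltransferases were followed in upper small intestine from mice whose gut epithelium lacked the homeodomain factor Pdx1. They are 7 of the 18193 genes measured, Ugt2b38, Ugt2b1, Ugt2b5, Ugt2b34, Ugt2b35, Ugt2b36 and Ugt2a3, and were read by 8 of the 45037 probe sets tested, each annotated to a single one of these symbols. Ugt2b34 had a pair of probe sets and every other gene had 1. The family was picked with the contrast of knockout and control already known, so its differences between the groups are given as a description, with no p-value, and support nothing by themselves.

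Samples came from 4 knockout mice of the genotype Pdx1flox/flox;VilCre and from 4 control mice of the genotype Pdx1flox/flox. All were 6-month-old males that the labels call brothers of one litter, fed a diet with 4.5% fat, and the floxed alleles were thus carried by both groups. Cre was driven by a 12.4 kb fragment of the villin 1 promoter, which is active in gut epithelium, so Pdx1 alleles outside the epithelium were not targeted. Each sample was the whole intestinal wall of the 5 cm next to the pylorus, on 1 array, so fewer enterocytes and less transcript per enterocyte could not be told apart. Values are log2 expression values per probe set, with array medians between 5.23 and 5.27.

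UDP-glucuronosyltransferases sit in the endoplasmic reticulum and join glucuronic acid, taken from UDP-glucuronic acid, to small fat-soluble molecules such as steroids, bile acids, bilirubin, drugs and plant compounds. The conjugates dissolve in water and are carried out of the cell by export pumps. Enterocytes and hepatocytes are the main sites of this reaction. The Ugt1a enzymes share most of their exons at one locus, whereas the Ugt2 genes are separate, closely related copies in a cluster. In the RefSeq gene table of GRCm38.p6 the cluster is an unbroken run of 10 protein-coding genes on chromosome 5, with 12 pseudogenes inside it. With such similar copies, a probe set may also read relatives of the gene it is named for.

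The promoters of Ugt2b38 and of 3 relatives are shown because they share stretches of upstream sequence while their transcript levels differed. The 250 bases before the transcription start are from RefSeq (GRCm38.p6), on the minus strand for all 4 genes, at chr5:87424204-87424453 for Ugt2b38, chr5:87254789-87255038 for Ugt2b37, chr5:87140341-87140590 for Ugt2b5 and chr5:87092556-87092805 for Ugt2b36. Capitals mark TAATTA, a core bound by many homeodomain proteins, Pdx1 among them, and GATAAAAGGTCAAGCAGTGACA, the longest run of bases that all 4 windows share. Both were searched on both strands and did not overlap in these windows.
Ugt2b38: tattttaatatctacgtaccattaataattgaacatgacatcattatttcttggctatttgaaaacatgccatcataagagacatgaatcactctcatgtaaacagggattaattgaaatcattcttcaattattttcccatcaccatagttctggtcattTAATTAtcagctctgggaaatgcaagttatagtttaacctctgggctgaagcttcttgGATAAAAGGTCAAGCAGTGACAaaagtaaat
Ugt2b37: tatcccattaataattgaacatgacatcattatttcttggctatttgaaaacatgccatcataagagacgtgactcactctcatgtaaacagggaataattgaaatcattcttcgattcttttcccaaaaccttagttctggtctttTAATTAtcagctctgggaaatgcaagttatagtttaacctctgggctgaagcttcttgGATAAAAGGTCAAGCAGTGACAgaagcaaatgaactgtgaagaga
Ugt2b5: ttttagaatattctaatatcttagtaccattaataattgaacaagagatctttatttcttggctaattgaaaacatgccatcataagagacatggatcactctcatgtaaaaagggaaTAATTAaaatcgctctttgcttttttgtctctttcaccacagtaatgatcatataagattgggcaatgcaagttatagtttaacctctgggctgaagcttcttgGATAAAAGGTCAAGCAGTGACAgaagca
Ugt2b36: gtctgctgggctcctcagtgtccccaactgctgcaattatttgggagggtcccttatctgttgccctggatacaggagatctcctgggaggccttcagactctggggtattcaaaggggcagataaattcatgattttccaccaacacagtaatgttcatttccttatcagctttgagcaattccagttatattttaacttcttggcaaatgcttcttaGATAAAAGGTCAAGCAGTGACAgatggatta

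In a global alignment the Ugt2b38 window had the same base as the Ugt2b37 window at 224 of 250 positions, or 89.6%. It shared 84.8% with Ugt2b5 and 64.4% with Ugt2b36, against 52.4% to 58.4% with the other 6 windows of the block, so the Ugt2b36 window was only a little closer than those. The shared run of 22 bases ended 10 bases before the start in Ugt2b38 and Ugt2b36, 7 in Ugt2b5 and 24 in Ugt2b37, and no other of the 32851 promoter windows of this length held it (4 in all, 0.0122%). In Ugt2b38, Ugt2b37 and Ugt2b5 it was the end of a run of 62 identical bases. TAATTA was present in 5 of the 10, namely Ugt2b38, Ugt2b37, Ugt2b5, Ugt2b35 and Ugt2a2, against 4.84% of all windows. Several of these windows are close copies of one another and the motif was chosen after seeing the data, so nothing is read from this share. In Ugt2b38 TAATTA began 89 bases before the start. A match is a run of letters and not a measured binding site.

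Ugt2b38 was the member that differed between the groups. Its probe set read 5.89, 7.21, 6.19 and 6.69 in knockouts 1 to 4, against 10.45, 9.49, 9.52 and 10.64 in controls 1 to 4. The highest knockout lay more than 2 units below the lowest control, so the groups did not overlap. Knockout samples averaged 6.50 ± 0.58 and control samples 10.02 ± 0.60 (SD over 4 mice each), a difference of -3.53 with a standard error of 0.32 and a 95% interval from -4.25 to -2.81. On the linear scale this was 11.5-fold lower. Among the 45037 probe sets it was the largest difference in either direction. All 4 knockout values were still above the array medians, and the deposited table gives no detection calls that would tell a remaining transcript from background.

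Of the 8 probe sets of the family, 1, that of Ugt2b38, passed an adjusted p under 0.05 in limma, where 0.0422% of all probe sets did, and no other member did. Values of the groups did not overlap for Ugt2b38 alone, against 4.43% of all probe sets. Since the family was picked on this contrast, nothing is read from these shares. The Ugt2b38 call was kept with any single sample left out, at differences between -3.77 and -3.33. It was lost with a trended and robust prior, with values under 5 set to 5, and in an ordinary linear model, each with the same difference of -3.53.

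**Figure D1:**
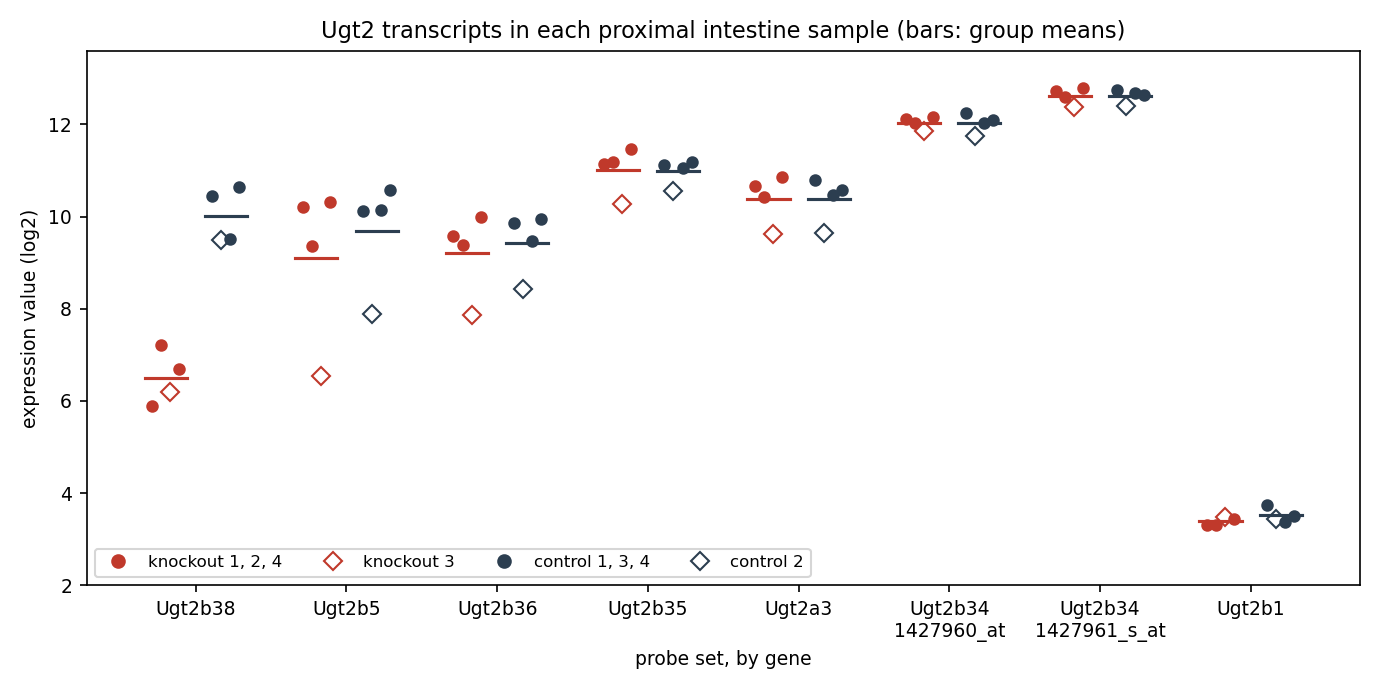
Log2 expression value (vertical axis) of each Ugt2 probe set (horizontal axis), with a point per sample, knockout left of control, and bars at the group means. Ugt2b38 read 5.89 to 7.21 in the knockouts and 9.49 to 10.64 in the controls, while in 6 other probe sets the open diamonds, knockout 3 and control 2, lie lowest within their groups.

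The other bright members had similar group means but varied between mice. For their 6 probe sets the difference between knockout and control lay between -0.57 and 0.036. In all 6, knockout 3 was the lowest knockout and control 2 the lowest control, a pattern found in 11.4% of all probe sets and in 35.3% of the 733 genes with a mean of at least 6 and an SD of at least 0.3. Those samples stood apart in this way for the members, so the differences are given with and without them.

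Ugt2b5 varied most. It read 10.20, 9.37, 6.55 and 10.32 in knockouts 1 to 4, and 10.13, 7.89, 10.14 and 10.58 in controls 1 to 4. Knockout 3 differed by -3.41 from the mean of the other knockouts, and control 2 by -2.39 from that of the other controls, while the remaining samples of both groups mixed. Knockout samples averaged 9.11 ± 1.76 and control samples 9.68 ± 1.21 (SD over 4 mice each), a difference of -0.57 with a standard error of 0.82. The 95% interval ran from -2.38 to 1.24, so a difference as large as a few-fold could not be seen for this gene. It rested on these samples: the difference turned to 0.28 without knockout 3 alone and was -1.17 without control 2 alone. Without both it was -0.32 with a standard error of 0.23.

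Ugt2b36 also had its lowest values in knockout 3 and control 2, over a smaller range. It read 9.59, 9.39, 7.87 and 10.00 in knockouts 1 to 4, and 9.87, 8.42, 9.46 and 9.94 in controls 1 to 4. The groups overlapped over most of their range. The difference was -0.21 (95% interval -1.21 to 0.78), and -0.099 without knockout 3 and control 2. It was 0.23 without knockout 3 alone and -0.55 without control 2 alone.

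Ugt2b35 read 11.14, 11.19, 10.28 and 11.47 in knockouts 1 to 4, and 11.12, 10.56, 11.07 and 11.20 in controls 1 to 4. Here too the low values were knockout 3 and control 2, and the other samples lay within less than 0.5 of one another. The difference was 0.036 (95% interval -0.48 to 0.55), and 0.14 without the low pair (0.28 without knockout 3 alone, -0.11 without control 2 alone). Ugt2a3, whose human counterpart conjugates bile acids, read 10.66, 10.43, 9.62 and 10.85 in knockouts 1 to 4, and 10.81, 9.65, 10.48 and 10.59 in controls 1 to 4. The lowest sample of each group was nearly the same, and the difference was 0.011 (95% interval -0.63 to 0.65), and 0.023 without that pair (0.27 without knockout 3 alone, -0.23 without control 2 alone).

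Ugt2b34 varied least among the bright members. Its brighter probe set read 12.73, 12.60, 12.39 and 12.79 in knockouts 1 to 4, and 12.75, 12.39, 12.68 and 12.63 in controls 1 to 4. The 2 groups covered the same narrow range, and the difference was 0.015 with a 95% interval from -0.22 to 0.25. The second probe set gave 0.0077, with an interval from -0.24 to 0.25. Without knockout 3 and control 2 the differences were 0.022 and -0.026, and with only 1 of those samples left out they lay between -0.087 and 0.096. The name of the brighter one ends in _s_at, which on these arrays marks probes shared by several transcripts. For this gene the interval leaves room only for a small difference in either direction.

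Ugt2b1, whose rat counterpart conjugates bisphenol A, was dim in every sample. It read 3.32, 3.31, 3.47 and 3.44 in knockouts 1 to 4, and 3.74, 3.44, 3.38 and 3.51 in controls 1 to 4. All of these lay below the lower quartile of every array, between 3.87 and 3.93, so the difference of -0.13 is one between values near the bottom of the scale. Ugt2b37, which is no member but has the promoter most like that of Ugt2b38, was as dim. It averaged 3.40 ± 0.087 in knockout and 3.50 ± 0.092 in control samples (SD over 4 mice each; difference -0.10, adjusted p = 0.806 in limma).

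The bright members other than Ugt2b38 moved together from mouse to mouse. Between the 10 pairs of Ugt2b5, Ugt2b34, Ugt2b35, Ugt2b36 and Ugt2a3, Pearson's r over the 8 arrays was 0.904 to 0.982, and 0.909 to 0.983 once each group's mean was subtracted. With Ugt2b38 these 5 genes had r of 0.032 to 0.306, and 0.297 to 0.506 with group means subtracted. The points of these correlations share arrays, scaling and, among such similar genes, possibly probes, and knockout 3 and control 2 set most of the range. Without the group means, the median r between pairs of the 733 variable genes was 0.045. Such high r was not particular to the family. Over the 8 arrays, 87 of the 732 other variable genes (11.9%) had r over 0.9 with Ugt2b5, the highest being Cym (0.993). Family members Ugt2b36 (0.979), Ugt2b35 (0.936) and Ugt2a3 (0.935) are counted among the 87.

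**Figure D2:**
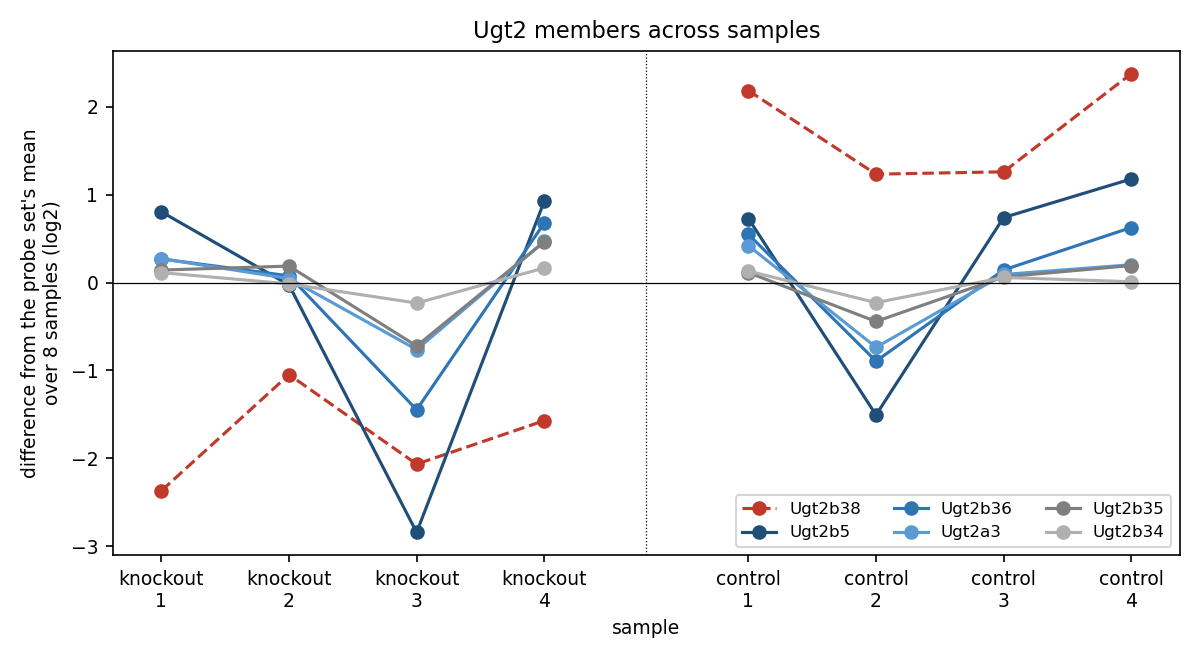
Difference of each sample from the probe set's mean over 8 samples (vertical axis, log2) for 6 bright Ugt2 members, by sample (horizontal axis; brightest probe set of each gene, lines join samples of a group for reading only). In knockout 3 and control 2 the solid lines dip together, while the dashed line of Ugt2b38 separates knockout from control.

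Markers of other cell types were set beside these samples. The mean deviation of 11 enterocyte markers from their means was -0.11 in knockout 3, against 0.12 to 0.19 in the other knockouts. In control 2 it was -0.23, against -0.081 to -0.0028 in the other controls. Apob, at 11.26 in knockout 3, had the largest SD of the list (0.79 in the knockouts and 0.70 in the controls). The low mean of knockout 3 rested largely on it. Between the groups, 10 of the 11 lay higher in knockouts, and Alpi lay lower (difference -0.22). The groups did not overlap for 7 of the 11, Alpi among them, against 4.43% of all probe sets. None passed in limma, where 0.0422% of all probe sets did, and 0 passed in an ordinary linear model. An unadjusted p under 0.05 in limma was found for 6, Alpi again among them, against 7.13% of all probe sets. Villin itself (Vil1) read 12.87 in knockout 3, the highest of all samples, and 12.56 in control 2. Anpep and Mttp were also highest in knockout 3. In 7 of the 11 markers (63.6%), knockout 3 was the lowest knockout and control 2 the lowest control. That pattern was found in 11.4% of all probe sets and in 35.3% of the 733 variable genes. The 9 gastric markers stood at 0.11 in knockout 3 and 0.54 in control 2, the highest of each group, over ranges of -0.19 to 0.11 in the knockouts and -0.28 to 0.54 in the controls. The 10 leukocyte markers stood highest in the same samples, at 0.37 in knockout 3 and 0.12 in control 2, over ranges of -0.22 to 0.37 and -0.25 to 0.12. The 9 exocrine pancreas markers ranged from -0.33 to 0.59 in the knockouts, highest in knockout 3, and from -1.31 to 1.00 in the controls, where control 2 stood at 0.23. The 8 smooth muscle markers ranged from -0.11 to 0.34 in the knockouts and from -0.25 to -0.070 in the controls. They stood at 0.305 in knockout 3 and -0.101 in control 2. All 8 lay higher in knockouts (median difference 0.22), and 4 had an unadjusted p under 0.05 in limma. All 9 gastric and all 9 exocrine pancreas markers lay lower in knockouts, and 8 of the 10 leukocyte markers lay higher. No marker of these lists passed in limma. The part of these cell types in the low Ugt2 values was not tested.

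The liver also holds Ugt2 enzymes, so 11 hepatocyte markers were read as well. Their mean deviation ranged from -0.38 to 0.090 in the knockouts and from -0.067 to 0.19 in the controls. It was lowest in knockout 3 and control 2, the samples in which the Ugt2 members were low. Only 5 of the 11 markers (45.5%) were themselves lowest in both samples. The mean of knockout 3 rested largely on Cyp3a11, Cyp2e1 and Ttr, at 12.01, 4.78 and 7.87 in that sample, named after their values were seen. The fibrinogen genes Fga, Fgb and Fgg and the haem carrier Hpx averaged 3.38, 3.53, 3.56 and 3.95 in the knockouts. In the controls they averaged 3.29, 3.51, 3.60 and 3.96, near the bottom of the scale in both groups. Of the 11 markers, 5 averaged under 5. Alb averaged 5.44 in knockout and 5.58 in control samples, and Apoh 6.02 and 6.05, above the array medians. Others of the list, named like these after their values were seen, were bright: the urea cycle enzyme Cps1 averaged 12.43 in knockout and 12.45 in control samples, and Cyp3a11, a drug-oxidising enzyme, averaged 13.11 in knockout and 13.42 in control samples. Ttr, the carrier of thyroid hormone, averaged 8.55 in knockout and 9.28 in control samples, and its groups did not overlap (difference -0.72, adjusted p = 0.625 in limma). The 7 ileal markers had mean deviations of -0.15 to 0.51 in the knockouts and -0.49 to 0.13 in the controls, again lowest in knockout 3 and control 2. Only 1 of the 7, Cubn, was itself lowest in both samples, at 5.50 in knockout 3 and 5.61 in control 2. Its SD, 2.01 in the knockouts and 1.41 in the controls, was the largest of the list, so this mean rested largely on it. Fabp6, Slc10a2 and Fgf15 of the list averaged below 5. These and the next were also named after their values were seen. The transporter Slc5a12 averaged 10.09 in knockout and 8.56 in control samples (difference 1.53, adjusted p = 0.421 in limma), and the bile acid exporter subunits Slc51a and Slc51b had differences of 0.18 and 0.21 (adjusted p = 0.689 and 0.796). The part of hepatocyte and ileal transcripts in the Ugt2 values was not tested. As a check of the labels, the brighter Pdx1 probe set read 5.58 to 6.18 in the knockouts and 8.16 to 8.98 in the controls, a difference of -2.59 (adjusted p = 4.16e-04 in limma).

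The change at Ugt2b38 was set against the genes around it on the chromosome. Of the 12 protein-coding genes with a probe set on each side of the Ugt2 block, 0 of 24 passed an adjusted p under 0.05 in limma. Among all probe sets 0.0422% did. An unadjusted p under 0.05 in limma was found for 2 (7.13% of all probe sets had one), and 0 passed in an ordinary linear model. Differences of the 24 neighbours lay between -0.21 and 0.34, with a median of -0.0089, where all genes had a median of 0.0046. Sult1b1, a sulfotransferase of the gut epithelium, is the next gene beyond Ugt2b38 with a probe set of its own. Ugt2a1 and Ugt2a2, which share a probe set, lie between them. Sult1b1 averaged 12.29 ± 0.081 in knockout and 11.98 ± 0.13 in control samples (SD over 4 mice each). Its difference of 0.31 was opposite in sign to that of Ugt2b38 and missed the threshold (adjusted p = 0.520 in limma). Stap1, a signalling adaptor of lymphocytes, had 0.34 (adjusted p = 0.625) and Odam, an enamel organ protein, 0.15 (adjusted p = 0.786). Of the 24 neighbours, 17 had means under 5.

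**Figure D3:**
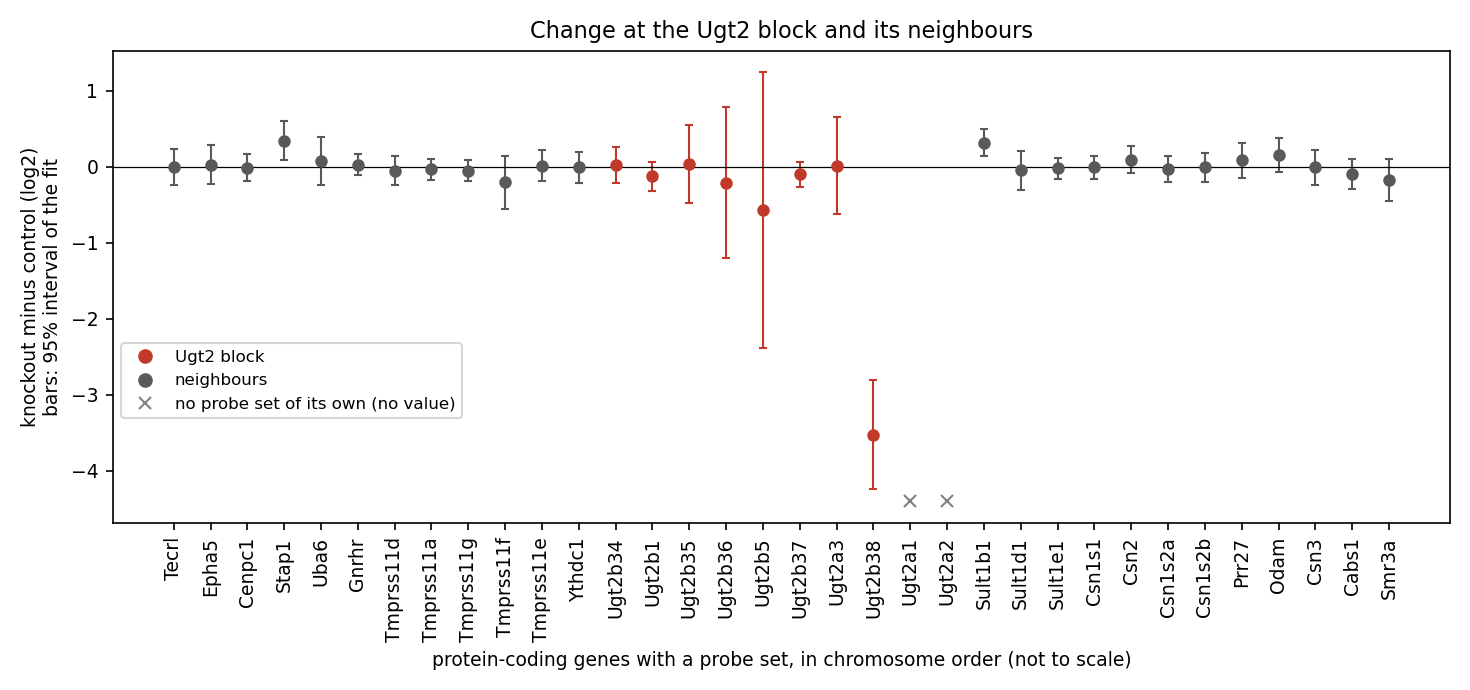
Difference of knockout minus control (vertical axis, log2, bars are 95% intervals of the fit) for the Ugt2 genes and their measured neighbours in chromosome order (horizontal axis, not to scale). Ugt2b38 lies at -3.53, with Ugt2a3 at 0.011 on its left. On its right, past Ugt2a1 and Ugt2a2 (crosses, no probe set of their own), is Sult1b1 at 0.31. The widest interval is that of Ugt2b5.

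Genes of glucuronidation and related processes were taken from 6 lists, called the glucuronidation lists here. Of their 62 entries, 49 were measured by a probe set with a single symbol. These included 14 transcription factors and 10 other conjugating or detoxifying enzymes, but only 4 of 15 other UGT genes. No gene of the 6 lists passed in limma (0 of 49), where 0.0422% of all probe sets did. An unadjusted p under 0.05 in limma was found for 2, against 7.13% of all probe sets. In an ordinary linear model 0 passed, where 2 of the 45037 probe sets did. With so few probe sets passing anywhere, these counts and those per list below do not show that the lists were unchanged. The 49 genes had a median difference of -0.0044, where that of all genes was 0.0046. The groups did not overlap for 2 of the 49, Vdr and Abcg2, against 4.43% of all probe sets.

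For the supply of UDP-glucuronic acid, 0 of 7 genes passed, with a median of -0.029. Ugp2, which makes UDP-glucose, had 0.061 (adjusted p = 0.898 in limma), and Slc35d1, which carries UDP-glucuronic acid into the endoplasmic reticulum, had -0.15 (adjusted p = 0.890). Pgm1, a phosphoglucomutase, had 0.098 (adjusted p = 0.939) and Uxs1, which turns UDP-glucuronic acid into UDP-xylose, had -0.059 (adjusted p = 0.919). In 6 of these 7 genes knockout 3 and control 2 were again the lowest of their groups, as in 20 of the 49 genes of all 6 lists (40.8%) and 35.3% of the 733 variable genes.

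Of the other transferases, the Ugt1a genes had no probe set of their own. Instead 3 probe sets were annotated to 8 Ugt1a genes at once, averaging 12.81, 13.50 and 12.72 in the knockouts and 12.81, 13.45 and 12.69 in the controls, with differences of 0.0028, 0.051 and 0.028 (adjusted p = 0.996, 0.926 and 0.975 in limma). The probe set shared by Ugt2a1 and Ugt2a2 read at most 3.77 in any sample. Ugt3a1, Ugt3a2 and Ugt8a had differences of -0.045, -0.044 and -0.058 (adjusted p = 0.943, 0.937 and 0.919), and the values of Ugt3a2 and Ugt8a averaged under 5.

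Among genes of glucuronide hydrolysis and export, 0 of 7 passed, with 6 above 0 and a median of 0.13. The pump Abcg2 averaged 11.07 ± 0.035 in knockout and 10.94 ± 0.090 in control samples (SD over 4 mice each), and its groups did not overlap (difference 0.13, adjusted p = 0.737 in limma). Abhd10, an esterase that splits acyl glucuronides, had 0.21 (adjusted p = 0.693), the β-glucuronidase Gusb 0.14 (adjusted p = 0.780) and the pump Abcc1 0.14 (adjusted p = 0.810). In glucuronic acid breakdown 0 of 7 passed. The lactonase Rgn had 0.37 (adjusted p = 0.808 in limma) and Miox, which makes glucuronic acid from inositol, 0.12 (adjusted p = 0.783). The gulonate dehydrogenase Cryl1 had 0.091 (adjusted p = 0.863) and Akr1a1, which reduces glucuronic acid to gulonic acid, 0.065 (adjusted p = 0.860).

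Of the transcription factors known to act on UGT genes, 14 of 15 were measured and 0 passed, with a median of 0.0063. The vitamin D receptor Vdr averaged 10.13 ± 0.20 in knockout and 10.54 ± 0.24 in control samples (SD over 4 mice each), and its groups did not overlap, at 9.84 to 10.28 in knockouts and 10.30 to 10.88 in controls. Its difference of -0.41 did not pass (adjusted p = 0.599 in limma, unadjusted p = 0.0111). The forkhead factor Foxa3 had -0.16 (adjusted p = 0.777), Arnt, the partner of the aryl hydrocarbon receptor, -0.13 (adjusted p = 0.785), and Nr1i2, the pregnane X receptor, 0.10 (adjusted p = 0.868). In the list of other conjugating or detoxifying enzymes 0 of 10 passed. The acetyltransferases Nat2 and Nat1 had 0.15 and 0.099 (adjusted p = 0.753 and 0.800), the methyltransferase Tpmt -0.097 (adjusted p = 0.843) and the epoxide hydrolase Ephx1 -0.42 (adjusted p = 0.883).

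**Figure D4:**
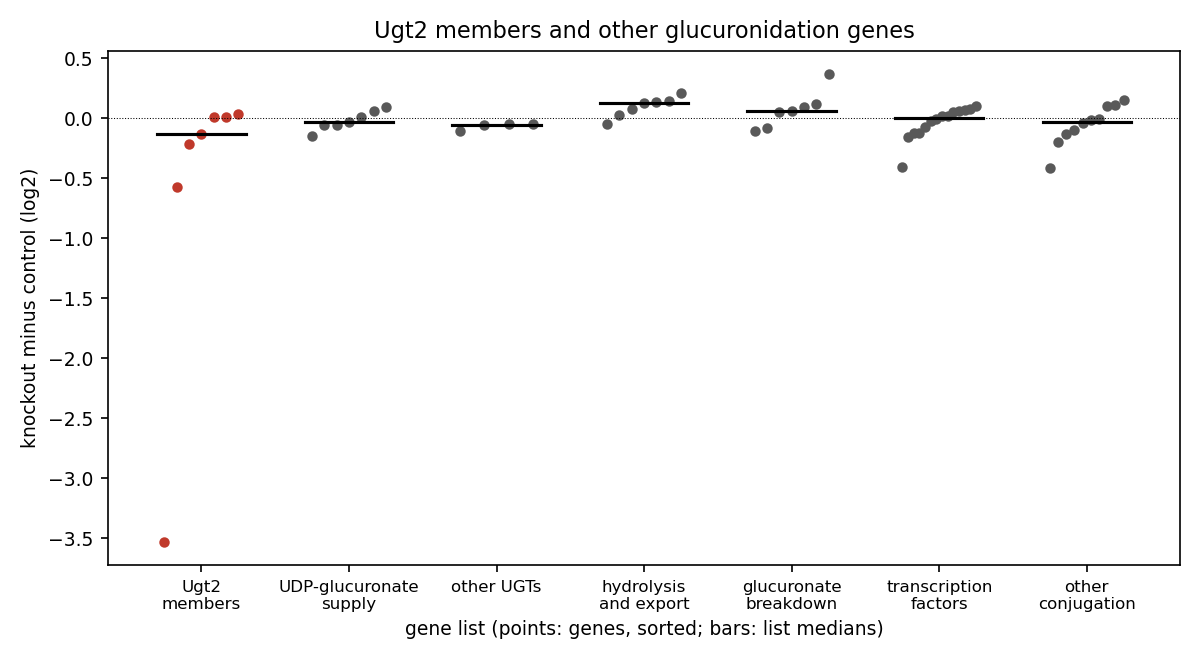
Difference of knockout minus control (vertical axis, log2) for the 7 Ugt2 members and for each measured gene of 6 lists of glucuronidation and related genes (horizontal axis), with bars at list medians. Ugt2b38 lies alone at -3.53, and all 49 list genes lie between -0.42 and 0.37.

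The genes whose pattern over the 8 arrays was most like that of Ugt2b38 were the alkaline phosphatase Akp3 (Pearson's r = 0.973), the thiamine transporter Slc19a3 (0.967), the hormone Gip (0.963), the glutathione transferase Gsta4 (0.948), Pdx1 (0.946) and the calcium pump Atp2b1 (0.921). Over samples in separated groups this measure mostly reflects the difference between them. With group means subtracted the r of the same genes was 0.616, 0.541, 0.359, 0.659, 0.0985 and -0.182, so they tracked Ugt2b38 unevenly within groups.

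Within groups another set was most like it. With group means subtracted the highest r over the 8 arrays belonged to Upf1 (0.980), Mri1 (0.975), Cyp4f18 (0.965), Gadd45gip1 (0.963), Cd22 (0.906) and Ms4a1 (0.889), the last being, like Cd22, a surface protein of B cells. Of these 6, the first 4 are annotated to chromosome 8, which holds 6.14% of the 733 genes ranked, while Ugt2b38 is on chromosome 5. Upf1, an RNA helicase of transcript decay, read 6.96, 7.71, 7.02 and 7.37 in knockouts 1 to 4, and 7.50, 6.73, 6.95 and 7.56 in controls 1 to 4. Its high samples, knockouts 2 and 4 and controls 1 and 4, were also the high samples of Ugt2b38 within each group. These are the highest of many correlations over few arrays and are given as a description.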

How the data were processed

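RNA of 8 intestine samples was labelled as biotin cRNA and hybridised to Affymetrix arrays, per the labels' protocols. The authors deposited log2 values for 45101 probe sets; the log2 scale was read from the values. The submitters' processing notes name Partek 6.4 without its role. Background correction, summarisation and normalization were not stated in the sources read here. Array medians were nearly equal, so a shift of all transcripts could not be seen, and dim probe sets carry unknown background. The number of arrays limits the precision.

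After 64 array controls were left out, knockout minus control was fitted over 45037 probe sets with lmFit and eBayes of limma 3.58.1 (R 4.3.3), with Benjamini-Hochberg adjustment over all of them and an adjusted p under 0.05 counted as passing. GEO's platform annotation gave 1 symbol to 34945 probe sets, several to 932 and none to 9160. A gene was represented by its brightest probe set. Named genes were the members, Pdx1, Vil1, up to 4 genes per list and 3 neighbours with the smallest p, and the 6 genes most like Ugt2b38 by Pearson's r among those with a mean of at least 6 and an SD of at least 0.3. Members, lists and tests were chosen with earlier results of these data known, and the motif, shared runs and promoter alignments (Biopython 1.88) after seeing the data. The fit was tested on simulated data. Alternatives were a replicate block, quantile normalization, median centring, a minimum mean, a floor, an ordinary linear model, array weights, other priors, other thresholds, gene means and samples left out. Figures used matplotlib 3.10.9. The labels do not say whether replicate numbers pair the samples, and the main fit used no pairing. Correlations of same-numbered samples' deviations were -0.184 to 0.0764, which cannot exclude a pairing.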

Additional observations from a re-analysis of the deposited data

Results flagged for a closer look

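Ugt2b5 in control 2, at 7.89, lay far from the other 3 controls at 10.13 to 10.58, with a gap that was 0.832 of the whole range of the group. It was the 1 such sample in 20 groups examined, over the member and Pdx1 probe sets, and chance alone gives about 1 in 20.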

How the results depend on the processing

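The count of all changed probe sets, 19, became 4 with values under 5 set to 5, 2 in an ordinary linear model and 29 at an adjusted p under 0.1, and 13 to 20 with 1 sample left out. The count of changed members, 1, became 0 with the floor, the trended and robust prior and the ordinary linear model, and stayed at 1 with each sample left out. The brighter Pdx1 probe set lost its call with the floor (-2.59, adjusted p = 0.0833 in limma) and in the ordinary linear model (-2.59, adjusted p = 0.113), as did the dimmer one (-1.82, adjusted p = 0.103, and -1.85, adjusted p = 0.153). The causes were not tested. Counts for the glucuronidation lists and the neighbours were 0 under every alternative run. A block on the replicate number gave 24 changed probe sets, 16 of them among the 19, and changed no call on a member. Without knockout 3 and control 2, chosen after seeing the data, Ugt2b38 differed by -3.61 and kept its call. With few arrays and no detection calls, differences in dim probe sets may be understated.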

Other observations

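The dip of Ugt2b5 in knockout 3 and control 2 was shared by other genes in these samples. The genes named here were picked after their values were seen. Over the 8 arrays 87 of 732 variable genes had a Pearson's r over 0.9 with Ugt2b5, the members Ugt2b35, Ugt2b36 and Ugt2a3 among them. The highest were Cym (0.993), Ppm1j (0.991), Greb1 (0.990), the acyl-CoA synthetase Slc27a2 (0.990), the steroid dehydrogenase Hsd3b3 (0.987) and Arnt2 (0.985), with adjusted p between 0.885 and 0.974 in limma for knockout against control. Slc27a2 read 11.08, 10.73, 9.67 and 11.05 in knockouts 1 to 4, and 10.96, 10.09, 10.86 and 11.28 in controls 1 to 4. Cubn, the cobalamin receptor cubilin, read 9.26, 8.03, 5.50 and 10.14 in knockouts 1 to 4, and 8.83, 5.61, 8.24 and 7.84 in controls 1 to 4. None of these values was used to form groups, and no cause was tested.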
